A study of Mus musculus with 10 samples.

Results

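The 38 genes described here encode the enzymes that carry glucose carbon through glycolysis and the tricarboxylic acid (TCA) cycle, with the enzymes that join or flank the pathways. They were taken by gene symbol from a fixed list, out of 53447 genes listed for each library, and the rule that takes them uses no measured value, although the list was drawn up with earlier results of these data known. They comprised 13 genes of glycolysis, 2 of lactate dehydrogenase, 4 of the pyruvate dehydrogenase complex, 17 of the TCA cycle and 2 aspartate aminotransferases. All 38 were measured and tested. Aldoa was listed under 2 gene identifiers, of which the second had at most 2.1 TPM in any library, so the values of the first are given.

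RNA was sequenced from the cerebella of 5 Dscam del17/del17 mice, labelled DscamKO, and 5 WT mice, labelled Control, at P21, with 1 library per mouse. Dscam encodes a cell adhesion molecule of neurons, and del17 is a spontaneous loss-of-function deletion within its 17th exon. The deletion is carried in the germ line, so every cell of the mutant mice has it and effects in other tissues are not separated from those in the cerebellum. The labels give BALB/c as the strain of all 10 mice, and the study's methods describe crossing of the line with BALB/cCrSlc mice. By the same methods, controls were littermates and mice of both sexes were used, but the labels give no sex, litter or treatment for single libraries. Values are in TPM, a relative transcript abundance that is divided by transcript length and scaled to a fixed total within each library. Levels can thus be compared between genes of a library. Between mice, TPM compares shares of each library, and no further scaling was applied unless stated.

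Glycolysis splits glucose into pyruvate in the cytosol. Pyruvate is then either reduced to lactate by lactate dehydrogenase or carried into mitochondria, where the pyruvate dehydrogenase complex turns it into acetyl-CoA for the TCA cycle. Neurons draw most of their ATP from the mitochondrial route, and astrocytes are known to run glycolysis and to release lactate. Malate dehydrogenases and aspartate aminotransferases also form the shuttle that brings the reducing equivalents of glycolysis into mitochondria.

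The summed TPM of the listed genes was 775148 to 805869 in the mutant libraries and 684771 to 838532 in the WT libraries, with the lowest sum in WT replicate 5. That library had 15623 genes with at least 0.5 TPM. The other WT libraries had 17101 to 17763 such genes and the mutant libraries 17130 to 17539. For genes above 0 in every library, the median ratio to the geometric mean of all libraries was 1.005 to 1.075 in the mutants. In WT replicates 1 to 5 it was 1.148, 1.056, 0.934, 1.077 and 0.816. The number of reads behind a TPM value is not kept, so depth and counting error are unknown. Dscam had 4.37 ± 0.979 TPM in mutant and 7.72 ± 1.15 TPM in WT cerebella (SD, n = 5 mice each), and the groups did not overlap (two-sided exact permutation p = 0.0079, which no division of the mice can undercut). The summed TPM of mitochondrially encoded mRNAs was 34717 to 44973 in the mutant libraries, and in the WT libraries it was 44670, 38733, 23124, 32199 and 15206 in replicates 1 to 5. WT replicates 3 and 5 were thus the 2 lowest of the 10 libraries. Markers of granule cells, Purkinje cells and Bergmann glia were present in every library (6 of 6 tested for each type), and the brainstem genes Hoxa5 and Hoxb5 were listed at 0 throughout. The log2 fold changes of the 6 granule cell markers lay above 0 for 1 gene and below 0 for 5, while 56.0% of all genes tested lay above 0. Neurod1 (-0.25) and Fat2 (-0.36) did not overlap between the genotypes, as for 0.798% of all genes with the mutant lower. The granule cell markers summed to 1557 to 1773 TPM in mutant and 1513 to 2078 TPM in WT libraries. Above 0 lay 5 of 6 Purkinje cell markers (median 0.17), 5 of 6 interneuron markers (0.24) and 3 of 6 markers of Bergmann glia and astrocytes (0.01). Of the 6 brainstem and midbrain markers, 3 were tested, and all 3 had log2 fold changes above 0 (0.82 to 2.19). The 6 summed to 4.74 to 6.94 TPM in mutant and 1.36 to 4.59 TPM in WT libraries, so these low sums did not overlap between the genotypes. Of the 6 markers of myelinating oligodendrocytes, 6 had log2 fold changes above 0, and 2 did not overlap between the genotypes (0.419% of all genes with the mutant higher). Their summed level was 6847 to 7992 TPM in mutant and 5426 to 7969 TPM in WT libraries. The 5 genes of red blood cells also lay above 0, with a sum of 1536 to 2698 TPM in mutant and 1065 to 1795 TPM in WT libraries. In whole tissue, fewer cells of a type and less RNA per cell cannot be told apart, and the part of cell composition in the values below was not tested.

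The genes of these pathways were among the most abundant mRNAs of the cerebellum. Together they took 1.27% ± 0.0431 of the listed TPM in mutant and 1.301% ± 0.0688 in WT libraries (SD, n = 5 each). Aldoa, the aldolase that splits fructose 1,6-bisphosphate, was the highest member with a mean of 1680 TPM over the 10 libraries, a level above that of 99.8% of the genes tested. Pkm, the pyruvate kinase of the last step, followed with 1022 TPM, and then Ldhb with 752 TPM, Eno2 with 687 TPM and Tpi1 with 658 TPM. The highest TCA cycle gene was Mdh1, with 499 TPM. The lowest member was Suclg2, with 4.59 TPM. The 4 genes of the pyruvate dehydrogenase complex lay between 39.5 TPM (Dlat) and 168 TPM (Pdhb), so that a single glycolytic mRNA such as Aldoa exceeded the whole complex in every library.

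**Figure D1:**
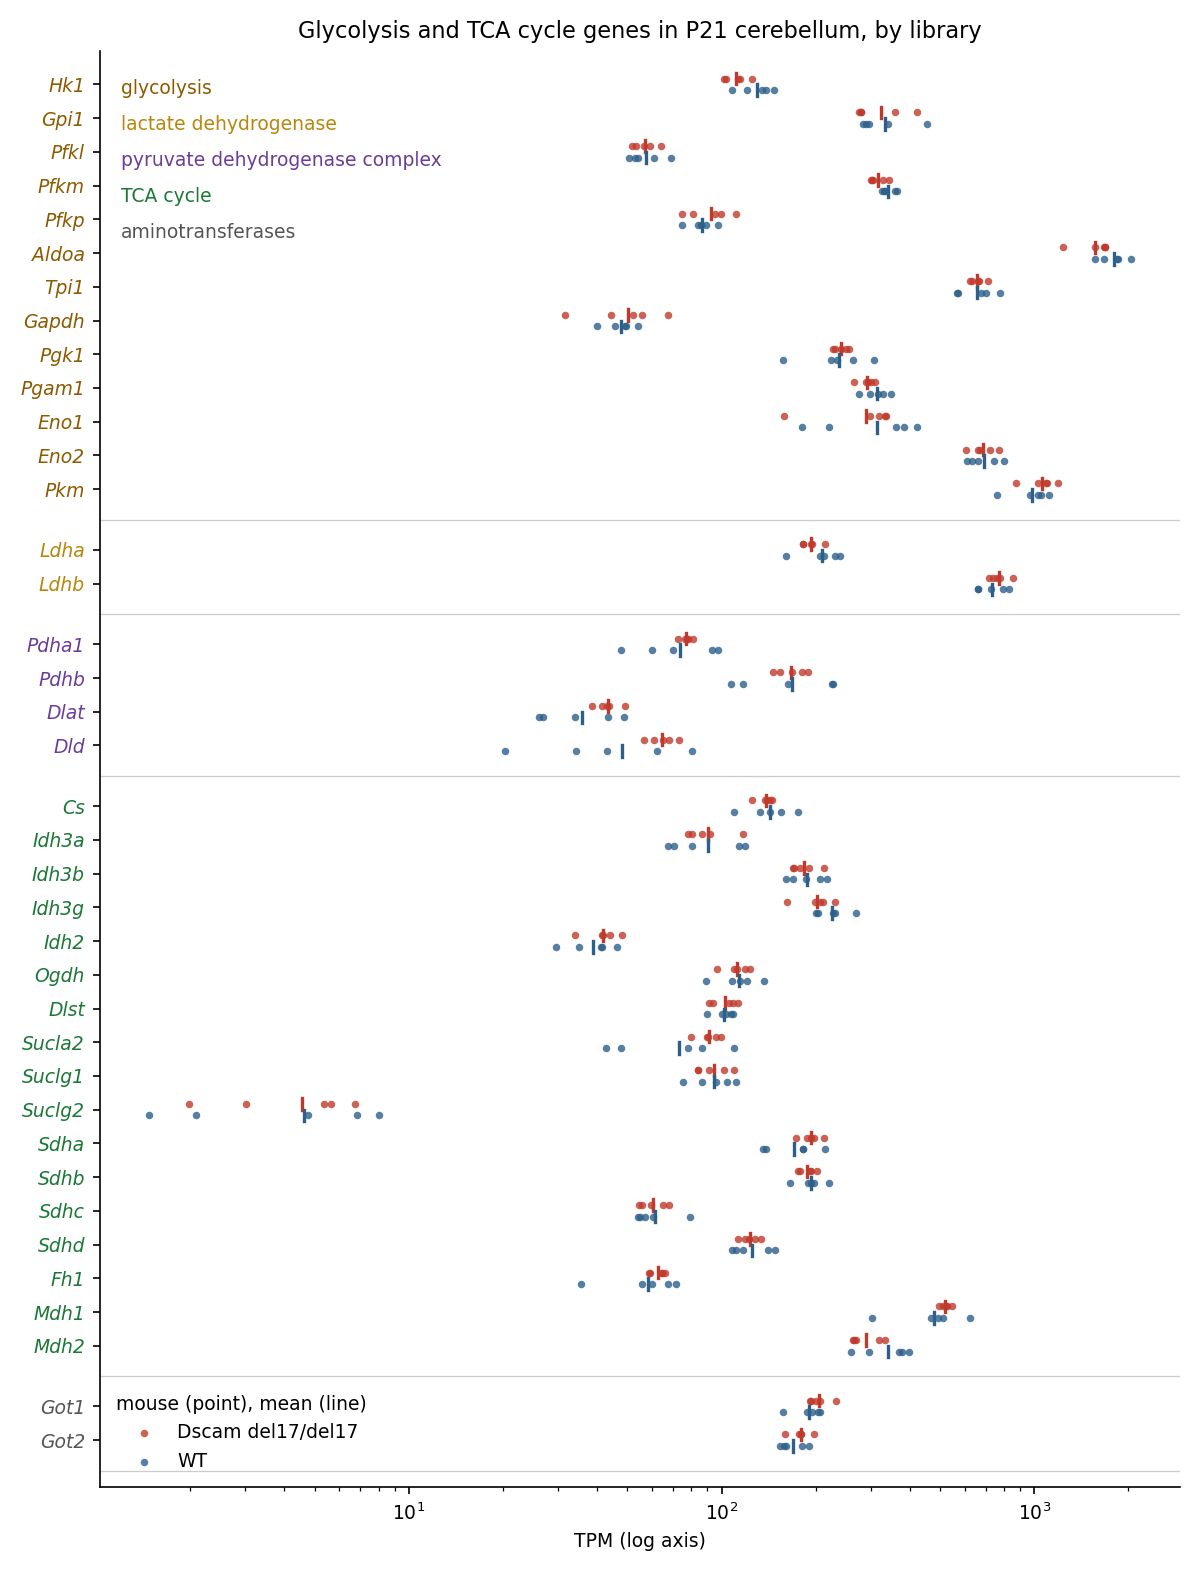
TPM on a log axis of each of the 38 genes, grouped by role, in the 5 Dscam del17/del17 libraries (red, upper row of each gene) and the 5 WT libraries (blue, lower row), with the group mean as a short line. Red and blue points overlap for every gene, and the blue points spread more widely for genes such as Dld, Sucla2 and Mdh1.

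Gapdh, which encodes the enzyme that oxidises glyceraldehyde 3-phosphate and is commonly used as a reference gene, ranked only 35th of the 38 by its own listed value, with a mean of 48.9 TPM. Most of the signal that bears its sequence was listed under other gene identifiers. The annotation holds 69 near-identical copies of the Gapdh coding sequence (at least 95% identity over at least 80% of the length, or a name that marks a copy), 65 of them processed pseudogenes, and these had 2037 TPM in all. The copies held 97.7% of the summed level (96.7% to 98.3% in single libraries). The summed level of 2086 TPM would rank 1st of the 38. Gm13394 alone had 1083 TPM, and 11 copies had at least 20 TPM while 45 had less than 1 TPM. Of all stretches of 151 bases (the number of sequencing cycles) in the Gapdh coding sequence, 93.5% occurred base for base in transcripts of other genes, 48 genes in all.

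A stretch of 90 coding bases from Gapdh and its 4 most abundant copies shows how little separates them, since it holds the only positions at which 3 of these copies differ from Gapdh, and the fourth differs nowhere. It covers positions 395 to 484 of the longest annotated Gapdh coding sequence, counted from 1 at the start codon, and is printed 5′ to 3′ on the coding strand, as read from the GENCODE M21 transcripts on GRCm38. Capitals mark the 3 positions at which any of the 5 sequences differ. Gapdh lies at chr6:125161715-125166467 (minus strand), and the copies, all annotated as processed pseudogenes, are Gm13394 at chr2:28933610-28934609 (minus), Gm5559 at chr5:95861714-95862715 (plus), Gm7336 at chr7:51746647-51747878 (plus) and Gm12070 at chr11:26786633-26787634 (plus).
Gapdh: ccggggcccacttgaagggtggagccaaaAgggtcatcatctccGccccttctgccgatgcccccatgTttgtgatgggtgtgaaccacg
Gm13394: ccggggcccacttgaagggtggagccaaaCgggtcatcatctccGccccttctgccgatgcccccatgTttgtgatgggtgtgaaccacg
Gm5559: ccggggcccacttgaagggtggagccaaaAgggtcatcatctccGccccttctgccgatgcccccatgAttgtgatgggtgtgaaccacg
Gm7336: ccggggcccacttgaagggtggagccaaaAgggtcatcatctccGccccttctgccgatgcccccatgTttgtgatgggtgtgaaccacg
Gm12070: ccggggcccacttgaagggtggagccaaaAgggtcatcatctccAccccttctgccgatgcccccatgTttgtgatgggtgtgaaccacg
Over the 999 coding bases compared, Gm13394, Gm5559 and Gm12070 each differed from Gapdh at 1 position, which lies in this stretch, and Gm7336 at 0 positions. A read outside these positions cannot be assigned to one of them by its sequence, so the value listed for Gapdh and those of its copies are uncertain singly.

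With its copies summed, Gapdh had 2138, 2057, 2029, 1862 and 2015 TPM in mutant replicates 1 to 5, against 2269, 1944, 2196, 2372 and 1975 TPM in WT replicates 1 to 5. The groups overlapped. The log2 fold change of the sum was -0.09 (standard error, SE, 0.0847, 95% interval -0.27 to 0.10, limma adjusted p = 0.817), whereas Gapdh as listed gave 0.04 (0.183, -0.36 to 0.44, adjusted p = 0.964). The interval of the sum was the narrower one, and neither value passed the test.

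Eno1, the enolase of most tissues, was divided in the same way. It was listed at 302 TPM, and its 3 copies held 317 TPM, or 51.2% of the sum, nearly all of it on Eno1b with 160 TPM and Gm4735 with 154 TPM. Of its stretches of 151 bases, 59.1% occurred in other genes. Eno1 itself had 336, 319, 333, 298 and 159 TPM in mutant replicates 1 to 5, against 423, 180, 384, 361 and 221 TPM in WT replicates 1 to 5, so 1 mutant and 2 WT libraries stood below the rest. With the copies summed, the mutants had 588 ± 68.7 TPM and the WT 648 ± 139 TPM (SD, n = 5 each), with a log2 fold change of -0.12 (95% interval -0.45 to 0.21, limma adjusted p = 0.855).

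Among the other members, copies took smaller shares of the summed level. Pgam1 had 10.3% of its summed level on copies, most of it on Pgam1-ps2, which matched its coding sequence at 100% identity and had 34.6 TPM. Pgk1 had 2.81% on copies although every stretch of 151 bases recurred elsewhere (100%). Got2 had 7.22% on copies and Suclg2 16.3%, and 26 of the 38 members had no copy of this kind. Of the 12 members with copies, the log2 fold change of the sum lay within 0.05 of the listed one for all but Gapdh and Suclg2. That of Suclg2 turned from 0.12 as listed to -0.28 with its copy summed (95% interval -1.20 to 0.64).

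**Figure D2:**
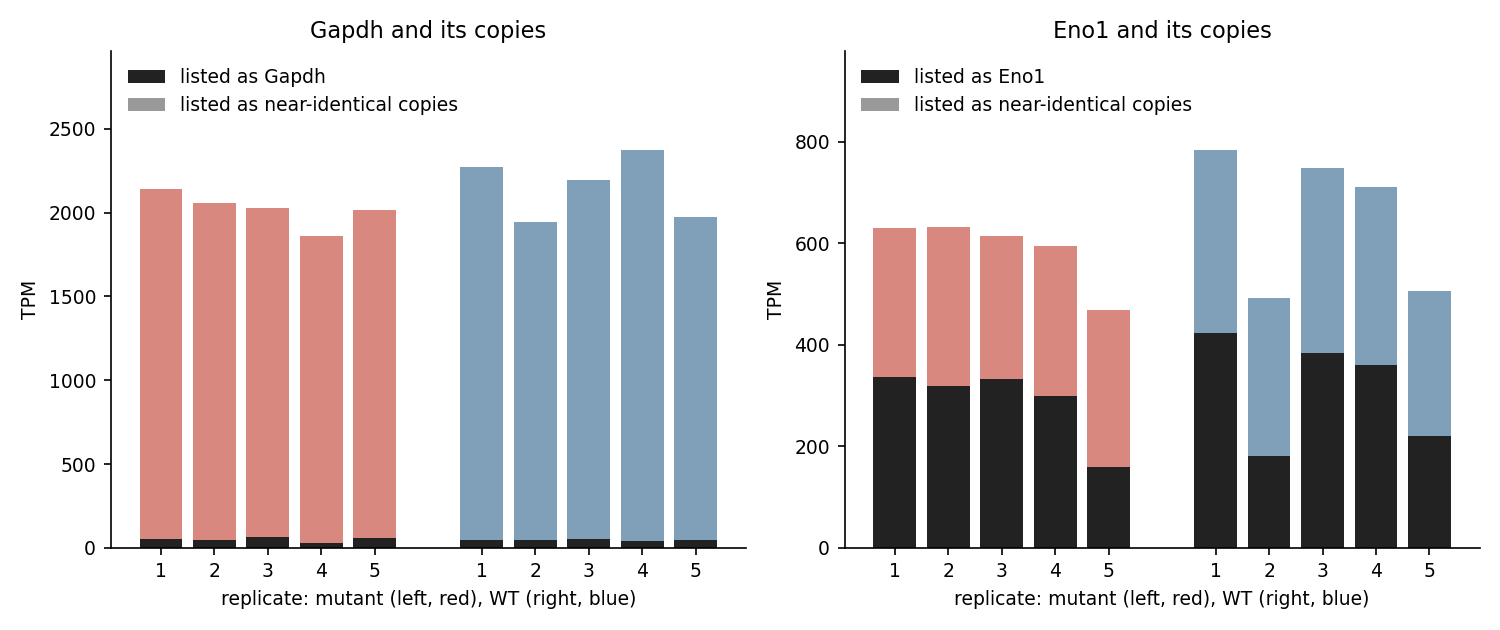
TPM listed as Gapdh (left) or Eno1 (right) in black, with the TPM of their near-identical copies stacked above, in mutant replicates 1 to 5 (red) and WT replicates 1 to 5 (blue). The black part is a thin base of each Gapdh bar and close to the middle of most Eno1 bars.

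The question put to these genes was whether loss of Dscam changes the expression of glycolytic or TCA cycle enzymes in the cerebellum at P21. No member differed between the genotypes by the test used. The 17168 genes with at least 0.5 TPM in at least 5 libraries were compared as log2(TPM + 0.1) with limma, and p-values were adjusted over all of them with the Benjamini-Hochberg method with the threshold set at 0.05. Every log2 fold change is the mutant value minus that of WT. Of all genes tested, 0% passed the threshold, and so did 0 of the 38 members, whose adjusted p ran from 0.779 to 0.999. Dscam itself did not pass either (log2 fold change -0.82, SE 0.230, limma adjusted p = 0.779). Before adjustment, 2.29% of all genes had p under 0.05 with higher levels in the mutant and 3.26% with lower levels, and 0 of the 38 members did in either direction. The 2 groups of 5 values did not overlap, with the mutant higher, for 0.419% of all genes and, with the mutant lower, for 0.798%, and again for 0 of the 38 members. In the exact permutation test on TPM, 0 members had p under 0.05 before adjustment, against 6.11% of all genes. After each library was scaled by the median of its gene ratios, 3 did in this exact test, at p = 0.0238 for Pgam1, p = 0.0397 for Ldha and p = 0.0476 for Sdha, against 6.75% of all genes.

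Of the members, 20 had log2 fold changes above 0 and 18 below, with a median of 0.01. Over all genes tested, 56.0% lay above 0 and the median was 0.05. The glycolysis genes were divided 5 above and 8 below (median -0.01), and the TCA cycle genes 8 above and 9 below (median -0.001). The 4 members from the pyruvate dehydrogenase complex were all above 0 (median 0.21). The last median fell to 0.09 if WT replicate 5 was dropped, to -0.05 if WT replicate 3 was dropped too, and to -0.07 with mitochondrial mRNA as a covariate. The median of all genes was -0.04, -0.09 and -0.10 in these 3 fits. Pdhx, a subunit of the same complex that is not among the 38 members, lay below 0 (-0.11, 95% interval -0.45 to 0.23). The 95% intervals lay within a log2 value of 0.5 in either direction for 29 of the 38 members and within 1 for 36. The wider ones were those of Dld and Suclg2.

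**Figure D3:**
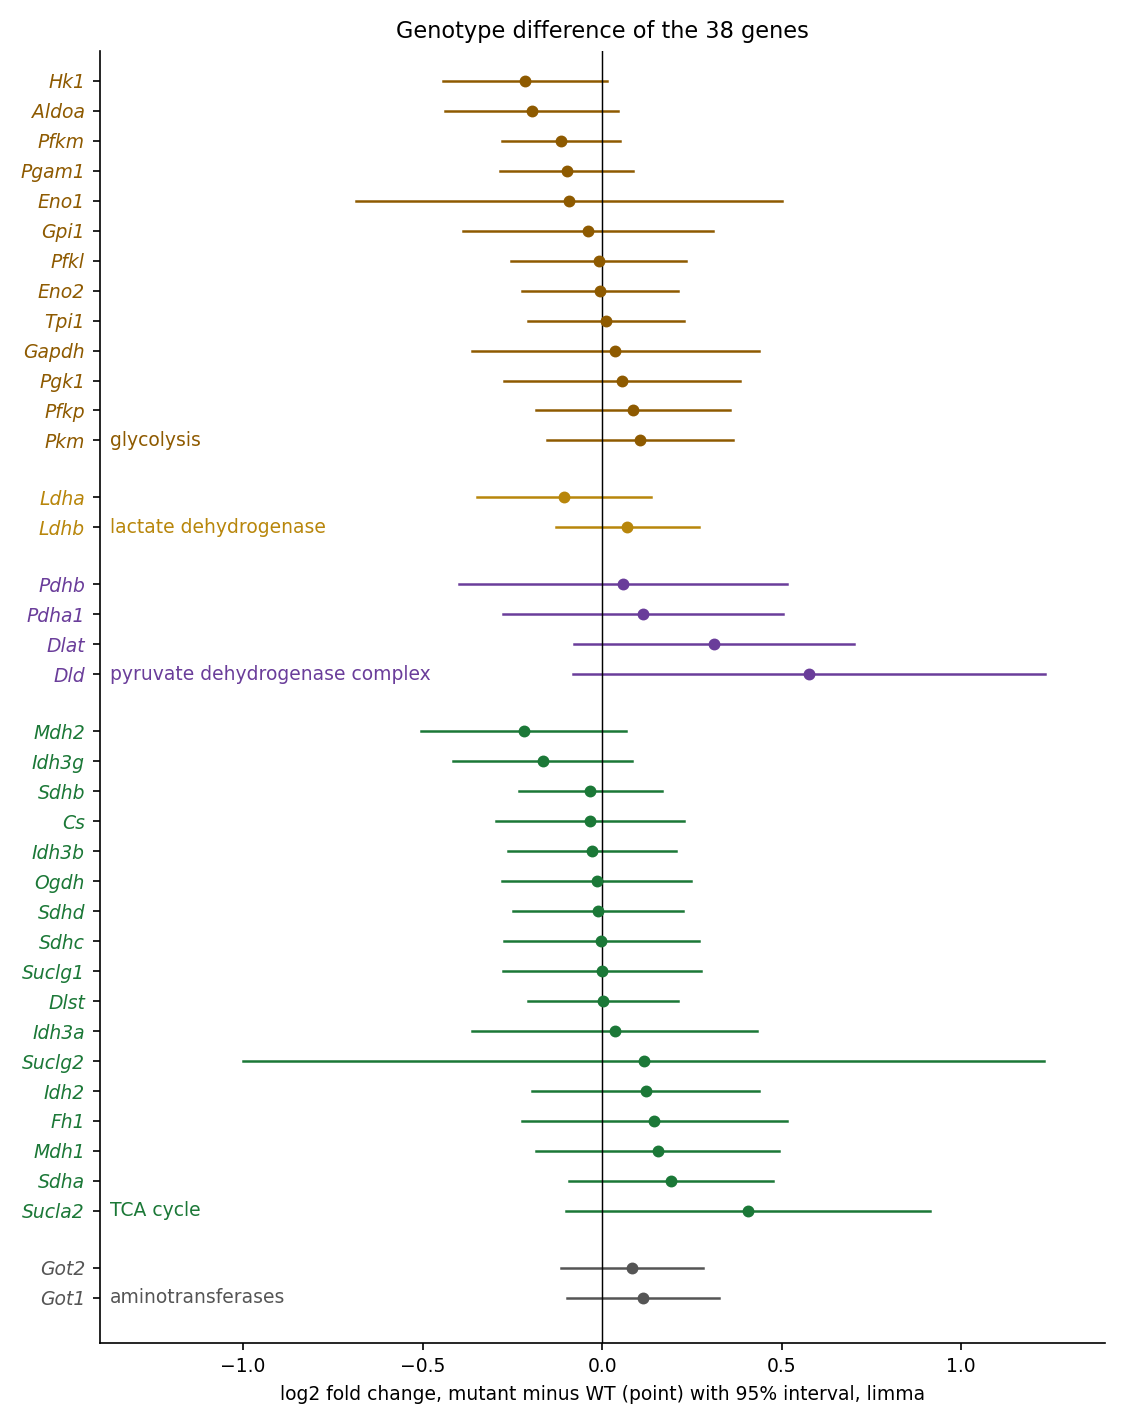
Log2 fold change of each gene (mutant minus WT, point) with its 95% interval from limma (line), grouped and coloured by role. All 38 intervals include 0, and the widest belong to Suclg2 and Dld.

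The first steps of glycolysis trap glucose and prepare it for cleavage. Hk1, the hexokinase of brain, had the smallest p of the glycolytic genes. It had 114, 113, 102, 103 and 125 TPM in mutant replicates 1 to 5, against 121, 108, 139, 135 and 147 TPM in WT replicates 1 to 5. The lowest WT value lay within the range of the mutants, and the other 4 WT values were above 4 of the 5 mutant values. The log2 fold change was -0.22 (SE 0.105, 95% interval -0.44 to 0.01, limma adjusted p = 0.779; unadjusted p = 0.0631). Its highest values were in WT replicates 3 and 5, where mitochondrial mRNA was lowest, and without these 2 libraries it was -0.12. Gpi1, glucose-6-phosphate isomerase, had 323 ± 65.1 TPM in mutant and 333 ± 70.9 TPM in WT cerebella (log2 fold change -0.04).

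Phosphofructokinase, the committed step of the pathway, is built from muscle, liver and platelet subunits. The muscle subunit Pfkm had the highest level of them. It had 344, 301, 303, 304 and 328 TPM in mutant replicates 1 to 5, against 358, 330, 333, 363 and 325 TPM in WT replicates 1 to 5. The 3 lowest values of the 10 were in mutants, yet the 2 groups overlapped (log2 fold change -0.11, 95% interval -0.28 to 0.05, limma adjusted p = 0.779). The liver subunit Pfkl had 56.9 ± 4.77 and 57.5 ± 7.39 TPM in mutant and WT cerebella (log2 fold change -0.01). The platelet subunit Pfkp had 92.4 ± 14.8 and 86.4 ± 8.18 TPM in mutant and WT cerebella (0.09).

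Aldoa had 1670, 1689, 1563, 1683 and 1236 TPM in mutant replicates 1 to 5, against 2033, 1568, 1851, 1840 and 1668 TPM in WT replicates 1 to 5. The 3 highest values were in WT and the lowest, well below the others, in mutant replicate 5. Its log2 fold change was -0.20 (SE 0.110, 95% interval -0.44 to 0.04, limma adjusted p = 0.779). Tpi1, triose phosphate isomerase, had 658 ± 34.9 TPM in mutant and 657 ± 89.6 TPM in WT cerebella, a log2 fold change of 0.01 with an interval of -0.21 to 0.23.

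The later steps of glycolysis yield ATP and end with pyruvate. Pgk1, phosphoglycerate kinase, had 240, 227, 256, 250 and 230 TPM in mutant replicates 1 to 5, against 307, 264, 234, 225 and 157 TPM in WT replicates 1 to 5. The mutant values were close together and lay inside the WT range, and the means differed by a log2 value of 0.05. Pgam1, phosphoglycerate mutase, had 292 ± 16.4 TPM in mutant and 313 ± 27.6 TPM in WT cerebella (log2 fold change -0.10, 95% interval -0.28 to 0.09). Eno2, the neuronal enolase, had 685 ± 63.0 TPM in mutant and 689 ± 79.2 TPM in WT cerebella (-0.01, interval -0.22 to 0.21).

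Pkm had 1193, 1092, 1099, 1029 and 876 TPM in mutant replicates 1 to 5, against 1054, 971, 760, 1031 and 1116 TPM in WT replicates 1 to 5. The 2 groups overlapped over most of their range. The log2 fold change was 0.11 (SE 0.119, 95% interval -0.15 to 0.37, limma adjusted p = 0.839). At the branch from pyruvate to lactate, the heart-type subunit Ldhb had 769 ± 51.9 TPM in mutant and 734 ± 77.5 TPM in WT cerebella (0.07). The muscle-type subunit Ldha had 193 ± 13.2 TPM in mutant and 210 ± 30.2 TPM in WT cerebella (-0.11, interval -0.35 to 0.14).

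The pyruvate dehydrogenase complex held the largest log2 fold change of the 38 genes, that of Dld, and wide spreads between WT mice. Dld, the lipoamide dehydrogenase that this complex shares with the 2-oxoglutarate dehydrogenase complex, had 73.0, 61.0, 67.9, 64.8 and 56.6 TPM in mutant replicates 1 to 5, against 80.3, 62.2, 34.3, 43.0 and 20.3 TPM in WT replicates 1 to 5. The 5 mutant values fell within the WT range, and WT replicates 3, 4 and 5 were below all of them. The log2 fold change was 0.58 (SE 0.300, 95% interval -0.08 to 1.23, limma adjusted p = 0.779; exact permutation test, two-sided, p = 0.167). It was 0.31 without WT replicate 5, 0.11 when WT replicates 3 and 5 were left out, and 0.03 once the level of mitochondrial mRNA was a covariate.

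Dlat, the acetyltransferase of the complex, had 43.7, 49.0, 41.6, 43.1 and 38.7 TPM in mutant replicates 1 to 5, against 48.7, 43.5, 26.8, 33.9 and 26.2 TPM in WT replicates 1 to 5. WT replicates 3, 4 and 5 were again the lowest of the 10, and the log2 fold change was 0.31 (SE 0.178, 95% interval -0.08 to 0.70, limma adjusted p = 0.779), and it came to 0.05 both when WT replicates 3 and 5 were left out and when mitochondrial mRNA entered as a covariate. Pdha1, the catalytic alpha subunit, had 72.3 to 80.8 TPM in mutant and 47.7 to 97.8 TPM in WT libraries (0.11). Pdhb, its partner, had 146 to 189 TPM in mutant and 107 to 228 TPM in WT libraries (0.06). For both, the mutant range lay inside the WT range, and without WT replicate 5 the values turned to -0.03 for Pdha1 and -0.09 for Pdhb. The mean log2 level of the 4 genes was 6.33, 6.27, 6.31, 6.30 and 6.16 in mutant replicates 1 to 5, against 6.59, 6.45, 5.66, 6.0 and 5.35 in WT replicates 1 to 5. From high to low, the WT mice stood in the order of replicates 1, 2, 4, 3 and 5, which was also their order by mitochondrial mRNA, and any link between these measures was not tested.

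In the TCA cycle, Sucla2 had the smallest p. It encodes the ATP-forming beta subunit of succinyl-CoA ligase and had 89.6, 90.6, 96.0, 99.3 and 79.8 TPM in mutant replicates 1 to 5, against 110, 86.7, 47.6, 77.9 and 42.7 TPM in WT replicates 1 to 5. WT replicates 3 and 5 stood far below the other 8 libraries. The log2 fold change was 0.41 (SE 0.231, 95% interval -0.10 to 0.91, limma adjusted p = 0.779), and it was 0.01 without these 2 libraries. Its partner Suclg1 had 94.3 ± 11.4 TPM in mutant and 94.7 ± 14.2 TPM in WT cerebella (-0.001). The ratio of Suclg1 to Sucla2 was 0.940 to 1.11 in the mutants and 1.02 to 1.82 in WT.

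The malate dehydrogenases were the most abundant of the 17 TCA cycle genes. The cytosolic Mdh1, which acts in the shuttle rather than in the cycle itself, had 521, 547, 526, 494 and 510 TPM in mutant replicates 1 to 5, against 622, 510, 467, 491 and 304 TPM in WT replicates 1 to 5. The mutants lay within a narrow band and WT replicate 5 far below it. The log2 fold change was 0.15 (95% interval -0.18 to 0.49, limma adjusted p = 0.822), and 0.00 without WT replicate 5. The mitochondrial Mdh2 had 332, 265, 270, 263 and 319 TPM in mutant replicates 1 to 5, against 370, 259, 296, 378 and 397 TPM in WT replicates 1 to 5. WT replicate 5 was here the highest of the 10, and the log2 fold change was -0.22 (SE 0.131, 95% interval -0.50 to 0.07, limma adjusted p = 0.779).

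The entry enzyme Cs, citrate synthase, had 138 ± 7.67 TPM in mutant and 143 ± 24.7 TPM in WT cerebella (log2 fold change -0.03, 95% interval -0.29 to 0.23). The 3 subunits of the NAD-dependent isocitrate dehydrogenase did not share a direction. Its catalytic subunit Idh3a had 90.8 ± 15.4 TPM in mutant and 90.2 ± 24.5 TPM in WT cerebella (0.03). Idh3b had 184 ± 18.3 and 188 ± 24 TPM (-0.03), and Idh3g 202 ± 25.1 and 226 ± 27.2 TPM (-0.17, interval -0.41 to 0.08), in mutant and WT cerebella. The NADP-dependent Idh2 had 41.9 ± 5.20 TPM in mutant and 38.7 ± 6.56 TPM in WT cerebella (0.12). Ogdh and Dlst, the first 2 components of the 2-oxoglutarate dehydrogenase complex, had log2 fold changes of -0.01 and 0.00. They had 112 ± 10.2 and 102 ± 9.52 TPM in the mutants, against 114 ± 17.6 and 102 ± 7.60 TPM in WT.

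Succinate dehydrogenase is complex II of the respiratory chain as well as an enzyme of the cycle. Sdha, the flavoprotein that oxidises succinate, had 213, 187, 197, 173 and 193 TPM in mutant replicates 1 to 5, against 215, 182, 139, 183 and 136 TPM in WT replicates 1 to 5. WT replicates 3 and 5 were the 2 lowest (log2 fold change 0.19, 95% interval -0.09 to 0.48, and -0.002 without them). The iron-sulfur subunit Sdhb had 188 ± 11.2 TPM in mutant and 193 ± 20.02 TPM in WT cerebella (-0.03). The membrane anchors Sdhc and Sdhd had 60.6 ± 5.86 and 123 ± 8.21 TPM in the mutants, against 61.1 ± 10.4 and 125 ± 18.2 TPM in WT, with log2 fold changes of -0.002 and -0.01.

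Fh1, fumarase, had 65.9, 64.5, 58.4, 59.2 and 64.5 TPM in mutant replicates 1 to 5, against 71.3, 60.0, 55.8, 67.5 and 35.5 TPM in WT replicates 1 to 5. WT replicate 5 was the lowest and WT replicate 1 the highest (log2 fold change 0.15, and -0.02 without WT replicate 5). Suclg2, the GTP-forming beta subunit of succinyl-CoA ligase, was low and varied more than any other member, with 1.99 to 6.73 TPM in mutant and 1.47 to 8.0 TPM in WT libraries. Its interval of -1.0 to 1.23 around 0.12 was the widest of the 38, and it spanned about 2-fold in either direction. Leaving out WT replicate 5 turned the value to -0.10, and leaving out WT replicate 3 as well turned it to -0.61. Among the aspartate aminotransferases, the cytosolic Got1 had 205 ± 16.8 TPM in mutant and 190 ± 19.6 TPM in WT cerebella (0.11, interval -0.10 to 0.33). The mitochondrial Got2 had 179 ± 13.4 TPM in mutant and 169 ± 15.7 TPM in WT cerebella (0.08, interval -0.11 to 0.28).

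Glycolysis and the TCA cycle were then set against each other within each library, which removes any factor that scales all genes of a library. The mean log2 level of the 13 glycolysis genes minus that of the 17 TCA cycle genes was 1.50, 1.35, 1.38, 1.31 and 1.34 in mutant replicates 1 to 5, against 1.30, 1.22, 1.71, 1.42 and 1.61 in WT replicates 1 to 5. The mean was 1.38 ± 0.0722 in the mutants and 1.45 ± 0.202 in WT (SD, n = 5 each). The 2 groups overlapped, with all 5 mutant values inside the WT range, and their means differed by -0.08. Without WT replicates 3 and 5, which had the highest values, the difference turned to 0.06, and to 0.04 once the level of mitochondrial mRNA was a covariate. With near-identical copies summed, the values were 1.83 to 1.97 in the mutants and 1.76 to 2.16 in WT, and the difference -0.07.

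**Figure D4:**
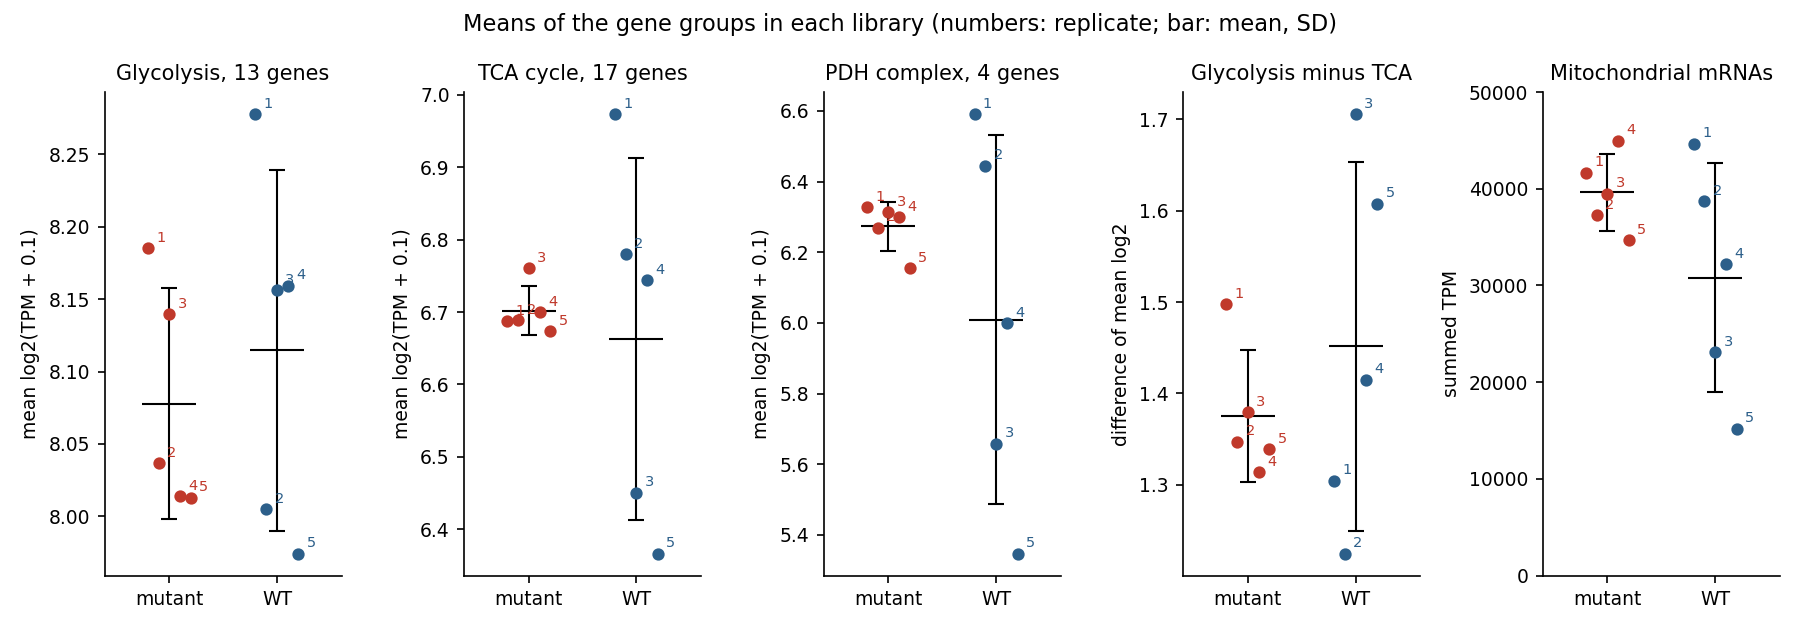
Mean log2(TPM + 0.1) of the glycolysis, TCA cycle and pyruvate dehydrogenase complex (PDH) genes, the glycolysis mean minus the TCA mean, and the summed TPM of mitochondrially encoded mRNAs, by library (points, numbered by replicate) with the mean and SD of each genotype. WT replicates 3 and 5 are lowest for TCA, PDH and mitochondrial mRNAs and highest for the difference, while the mutant points stay within the WT range in all panels but the last.

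The more marked feature of the data was therefore the spread among WT libraries. With 1 library per mouse, differences between mice and differences between libraries cannot be told apart. The SD was larger in WT than in the mutants for 33 of the 38 members and for 67.1% of all genes tested, and the median coefficient of variation was 8.95% in the mutants and 14.8% in WT. Over all genes tested it was 22.04% in the mutants and 32.3% in WT, so the wider spread was not particular to these genes. The mutant range lay inside the WT range for 14 of the 17 TCA cycle genes and 3 of the 4 pyruvate dehydrogenase genes, but for 3 of the 13 glycolysis genes, against 34.7% of all genes tested. WT replicate 5 was the lowest of the 10 libraries for 11 of the 17 TCA cycle genes, for 4 of the 4 pyruvate dehydrogenase genes and for 2 of the 13 glycolysis genes (38.8% of all genes tested). WT replicate 1 was the highest for 20 of the 38 members (18.1% of all genes tested).

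The size of this spread differed from gene to gene. Between the highest and the lowest WT mouse, Suclg2 differed 5.43-fold and Eno1 2.35-fold, and both also spread widely among the mutants, 3.39-fold and 2.12-fold. Gapdh as listed spread more among the mutants (2.14-fold) than among WT (1.35-fold). Between the highest and the lowest WT mouse, Dld differed 3.95-fold, Sucla2 2.57-fold, Pdhb 2.13-fold, Pdha1 2.05-fold, Mdh1 2.05-fold and Fh1 2.01-fold. Between the highest and the lowest mutant, these 6 genes differed 1.29-fold, 1.24-fold, 1.30-fold, 1.12-fold, 1.11-fold and 1.13-fold. Other genes differed little in WT, among them Pfkm (1.12-fold), Dlst (1.22-fold) and Got2 (1.23-fold). Hk1, Pkm and Mdh2 were the 3 members of the 38 that were higher in WT replicate 5 than in WT replicate 1. What sets WT replicates 3 and 5 apart was not tested.

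Where an enzyme exists in several forms, the share of each form is also free of library scaling. Pfkm made up 67.9% ± 2.27 of phosphofructokinase mRNA in the mutants and 70.4% ± 1.80 in WT, and Pfkp 19.8% ± 2.72 in the mutants and 17.8% ± 1.41 in WT (SD, n = 5 each). Ldhb made up 79.9% ± 1.37 of lactate dehydrogenase mRNA in the mutants and 77.8% ± 1.71 in WT. Eno2 made up 70.5% ± 6.84 of enolase mRNA in the mutants and 69.4% ± 6.31 in WT, or 53.8% and 51.9% when the copies of Eno1 were summed with it. Sucla2 exceeded Suclg2 by far, with 95.4% ± 1.73 of the 2 in the mutants and 94.5% ± 1.99 in WT. Got1 made up 53.4% ± 1.07 of the 2 aminotransferases in the mutants and 52.9% ± 3.93 in WT.

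Mdh1 made up 64.3% ± 2.82 of malate dehydrogenase mRNA in the mutants and 58.0% ± 8.90 in WT. The WT mean rested on replicate 5, with 43.4%, against 56.5% to 66.3% in the other 4 WT mice. The 2 genotypes overlapped for every share. The order of the forms was that known for brain, with the muscle-type phosphofructokinase, the neuronal enolase, the heart-type lactate dehydrogenase and the ATP-forming succinyl-CoA ligase in the lead. With the copies of Eno1 summed, the lead of Eno2 did not hold in mutant replicate 3 (49.6%) and in WT replicates 1 (48.7%) and 3 (46.8%).

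**Figure D5:**
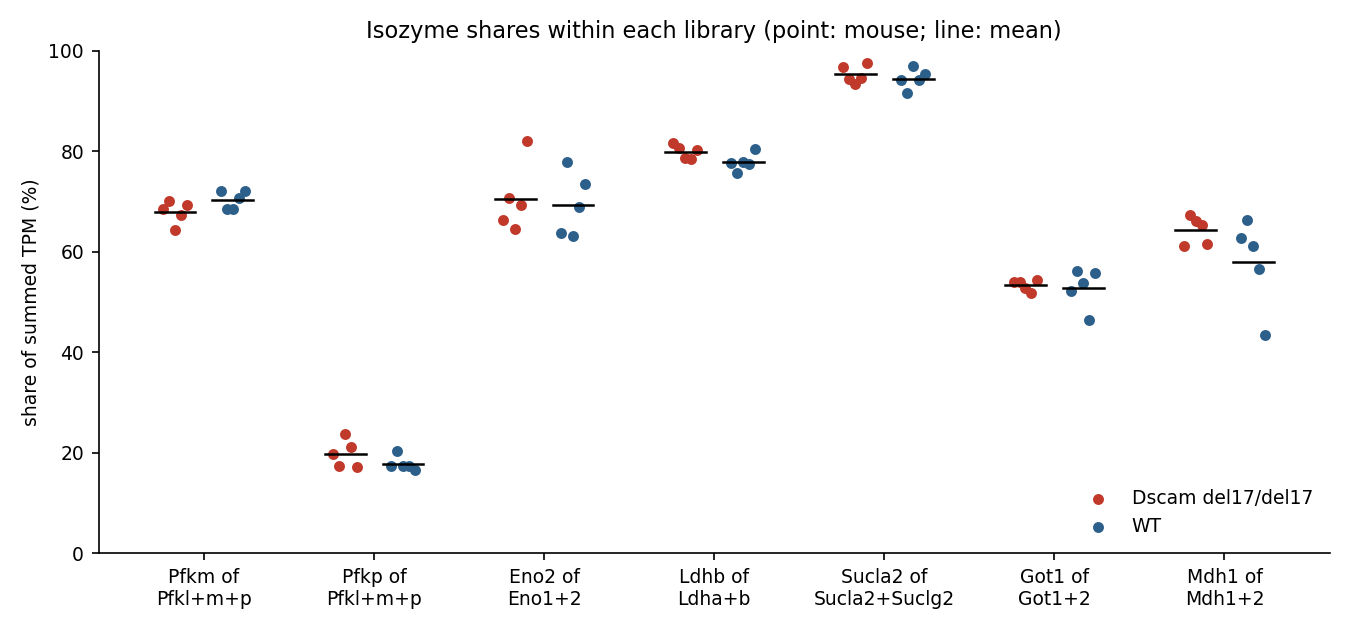
Share in percent of one form in the summed TPM of its enzyme, in each Dscam del17/del17 (red, left) and WT library (blue, right), with the group means as lines. The points of the 2 genotypes overlap for all 7 shares, and the low WT point for Mdh1 is replicate 5.

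Genes that feed, regulate or branch from these pathways were counted from lists of their own. Of the 108 genes in 10 such lists, 90 were tested, 57 had log2 fold changes above 0 and 33 below (median 0.08), and 0 passed the threshold (0% of all genes tested). Of all genes tested, 56.0% lay above 0. With WT replicate 5 left out, the median of the 90 listed genes turned to -0.02, and with WT replicate 3 left out as well, to -0.08. In the exact permutation test, 6 of the 90 had p under 0.05 before adjustment, against 6.11% of all genes tested. By limma, 1 had an unadjusted p under 0.05 with the mutant higher, against 2.29% of all genes. Another 1 had it with the mutant lower, against 3.26%. The lower one was Rpia, ribose-5-phosphate isomerase of the pentose phosphate pathway. It had 4.92, 3.998, 4.94, 5.26 and 4.76 TPM in mutant replicates 1 to 5, against 9.16, 9.98, 11.1, 12.6 and 5.71 TPM in WT replicates 1 to 5. The groups did not overlap, as for 0.798% of all genes in this direction. Its log2 fold change was -0.97 (SE 0.236, 95% interval -1.48 to -0.45, limma adjusted p = 0.779), and it ranged from -1.16 to -0.86 under the alternatives tried.

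The higher one was Slc2a1, the glucose transporter GLUT1 of the blood-brain barrier and astrocytes. It had 91.7, 72.7, 79.6, 75.1 and 92.4 TPM in mutant replicates 1 to 5, against 64.1, 80.8, 56.8, 68.7 and 67.2 TPM in WT replicates 1 to 5. The groups overlapped through WT replicate 2. Its log2 fold change was 0.29 (SE 0.117, 95% interval 0.03 to 0.54, limma adjusted p = 0.779). Of the 6 endothelial markers, which include it, 3 lay above 0 and 3 below (median 0.03), and their sum was 244 to 294 TPM in mutant and 239 to 294 TPM in WT libraries.

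Of the 9 transport genes tested, Slc2a1 among them, 5 lay above 0, with Slc2a6 at 22.3 ± 3.52 TPM in mutant and 27.7 ± 4.23 TPM in WT cerebella (-0.31) and Bsg, the partner of the lactate transporters, at 981 ± 82.3 and 1046 ± 46.3 TPM (-0.10). In the list of genes that regulate pyruvate dehydrogenase or carry pyruvate, which also held lipoyl genes and the subunit Pdhx, 10 of 13 lay above 0 (median 0.21). That median was 0.12 without WT replicate 5, 0.07 without WT replicates 3 and 5, and 0.05 with mitochondrial mRNA as a covariate. The kinase Pdk4, which switches the complex off, had 4.76 ± 1.75 TPM in mutant and 2.93 ± 1.36 TPM in WT cerebella (0.76, limma adjusted p = 0.779), and 0.46 without WT replicate 5. The kinase Pdk2 had 153 ± 21.96 TPM in mutant and 154 ± 24.9 TPM in WT cerebella (-0.01). Lias, which makes the lipoyl group that Dlat and Dlst carry, had 24.9 ± 1.25 TPM in mutant and 17.9 ± 8.93 TPM in WT cerebella (0.63, limma adjusted p = 0.779), and 0.33 without WT replicate 5.

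Of the other TCA cycle and anaplerotic genes, 15 of 20 tested lay above 0 (median 0.06, and -0.03 without WT replicate 5). Slc25a1, the citrate carrier, had 44.7 ± 6.55 TPM in mutant and 52.9 ± 11.2 TPM in WT cerebella (-0.23). In the list for the shuttles that carry reducing equivalents, 4 of 8 lay above 0. They included Slc25a13 at 1.10 ± 0.338 TPM in mutant and 0.596 ± 0.393 TPM in WT cerebella (0.92, and 0.61 without WT replicate 5). The glutamate carriers Slc25a18 (-0.25) and Slc25a22 (-0.05), counted in this list though not part of these shuttles, lay below.

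The list of other glycolytic isozymes had 6 of 9 tested above 0. These 6 included the D-lactate dehydrogenase Ldhd and the phosphoglucomutases Pgm1 and Pgm2, which are not themselves isozymes of glycolysis. Aldoc, the aldolase of astrocytes and of a subset of Purkinje cells, was nearly as abundant as Aldoa, with 1447 ± 107 TPM in mutant and 1380 ± 47.1 TPM in WT cerebella (0.07). Ldhd had 13.6 ± 2.09 TPM in mutant and 11.0 ± 0.479 TPM in WT cerebella (0.30). Among the genes for fructose 2,6-bisphosphate, 2 of 4 lay above 0, with Pfkfb2 at 0.15 (0.02 without WT replicate 5) and Tigar at -0.13. In the pentose phosphate pathway, 3 of 8 lay above 0, with Taldo1 at 0.02 and H6pd at -0.49 (-0.08 and -0.29 without WT replicate 5).

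Glycogen genes had 7 of 12 tested above 0. Pygm had 36.4 ± 2.21 TPM in mutant and 42.4 ± 4.09 TPM in WT cerebella (-0.22), Pygb, the brain glycogen phosphorylase, had -0.12 and Phkg2 -0.0007. Of the genes of ketone body use, 4 of 5 lay above 0. Bdh1 had 53.6 ± 3.78 TPM in mutant and 61.2 ± 3.63 TPM in WT cerebella (-0.19, limma adjusted p = 0.779), and Oxct1 had 168 ± 2.77 and 150 ± 47.2 TPM (0.22, and 0.05 without WT replicate 5). Creatine kinase, which buffers ATP, was represented by Ckb at 3107 ± 309 TPM in mutant and 3363 ± 329 TPM in WT cerebella (-0.11) and by the mitochondrial Ckmt1 (0.02).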

How the data were processed

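Cerebellar RNA of 5 Dscam del17/del17 and 5 WT mice at P21 was sequenced with 151 cycles per read. The authors trimmed the reads, aligned them to GRCm38 with HISAT2 and used StringTie for TPM of each Ensembl gene, and the deposited values are TPM. The annotation release, the strand setting and the treatment of reads with several matches are not given in the sources used here. The read counts made with HTSeq and the DESeq2 comparison were not analysed here. The 38 genes and all lists were chosen with earlier results of these data known.

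Genes that reached 0.5 TPM in 5 or more of the 10 libraries were tested with limma (version 3.58.1, run in R 4.3.3) on log2(TPM + 0.1), with genotype as the factor and a variance trend, after a check on simulated data. The added 0.1 TPM draws fold changes of low genes toward 0. Two-sided exact permutation tests used all 252 divisions of the libraries into 5 and 5. Intervals are 95% intervals. Replicates are separate mice, and which of them share a litter is not given.

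Symbols and positions are from GENCODE M21 on GRCm38, which lacked 105 of the 53447 identifiers. Copies were found with BLAST (version 2.17.0), with the longest coding sequence of each member against all transcripts. Group means, shares and ratios are descriptions without a test. Values were given per library for the members with the smallest p or the highest mean within glycolysis with lactate dehydrogenase and within the mitochondrial group, and for others chosen after their values were seen (Gapdh, Eno1, Pgk1, Sdha and Fh1). Of each further list, the 2 genes with the smallest p and the highest one were named, except for some that are not reported here. Alternatives were other scalings, added values, filters and models, a block for the replicate number, and fits that left out libraries.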

Additional observations from a re-analysis of the deposited data

Results flagged for a closer look

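In groups of 5 mice, a library was marked when its distance to the nearest other made up more than 0.71 of the range of its group. This held for 4 of the 94 groups examined, and chance alone marks about 1 in 20, or 4.7. Aldoa had 1236 TPM in mutant replicate 5, against 1563 TPM in the next lowest mutant. Eno1 had 158.7 TPM in the same library, against 298.5 TPM in the next lowest mutant. Sdhc had 79.1 TPM in WT replicate 1, against 60.27 TPM in the next highest WT library. The share of Pfkp in phosphofructokinase mRNA reached 20.24% in WT replicate 2, with 17.41% as the next highest WT value.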

How the results depend on the processing

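Under the 24 alternatives, 0 of the 38 members passed the adjusted threshold. Some log2 fold changes moved by more than their SE. With the mitochondrial mRNA covariate, Dld went from 0.58 (SE 0.300) to 0.03, Sucla2 from 0.41 (SE 0.231) to 0.001 and Pdhb from 0.06 (SE 0.209) to -0.30. All genes tested gave 0 calls except 4 without the variance trend, and 0 to 1 when each library was left out in turn (1 without mutant replicate 4). The signs of 14 members held throughout, 7 above 0 (Pkm, Ldhb, Dlat, Dld, Sucla2, Got1 and Got2) and 7 below (Hk1, Pfkm, Aldoa, Pgam1, Ldha, Idh3g and Mdh2). Members with an unadjusted limma p under 0.05 numbered 1 to 4 in 10 alternatives. There were 4 without WT replicate 1 (Dlat, Dld, Sdha and Sucla2, all above 0, against 5.99% of all genes in that direction) and 3 without WT replicate 2 (9.52% of all genes in either direction). There were 4 with the mitochondrial mRNA covariate (Ldha, Pdhb, Pgam1 and Pgk1, all below 0, against 5.03% of all genes in that direction). The other 7 had 1 or 2 such members, against 5.74% to 7.29% of all genes in either direction. Members with an exact permutation p under 0.05 numbered 2 with equal listed sums (6.72% of all genes) and 3 with median-of-ratios scaling (6.75%). The median of all genes was -0.10 with the mitochondrial mRNA covariate and -0.09 without WT replicates 3 and 5, and that of the members -0.10 and -0.09. With the replicate block, Dld had an unadjusted p of 0.0416 (limma adjusted p = 0.717) and 0 members passed. Same-numbered libraries correlated at 0.00789 to 0.0978 and own numbers matched best for 2 of 5. These weak correlations gave no sign of pairs, but they cannot show whether same-numbered mice share a litter. Depth is unknown from TPM, which limits what can be said of Suclg2 and other low genes.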
